A study of Mus musculus with 15 samples.

Results

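Gene expression in 4 clonal populations of the 4T1 line was compared, as a group, with the parental population they came from. All 15 libraries of the series belonged to the comparison, 12 of them clonal and 3 parental. They were chosen by their population label alone, and each clone had the same weight in the mean of the 4. The question was which genes stood higher or lower in every clone than in the parental cells, and by how much, across all measured genes.

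4T1 is a mouse mammary carcinoma line that grows readily in culture. The parental population is labelled wild type and was not transfected. The populations E1, E2, A and M each arose from 1 isolated cell after transfection with the pNLS-iRFP670 plasmid, which encodes a near-infrared fluorescent protein sent to the nucleus. The clones were kept in the antibiotic G418, which was left out of the culture before RNA was taken. All populations grew in the same serum-containing medium, and total RNA was collected after 72 h in culture at about 80% confluency, in 3 biological replicates per population. A difference that all clones share may go with transfection, with drug selection, with growth from 1 cell or with the cells that were picked, and these cannot be told apart in this design. There was 1 parental population against 4 clones, so an exact permutation test with the population as its unit cannot give a p below 0.2. All p-values below use the spread between the libraries of a population.

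A cultured cancer line is a mixture of cells that differ in their chromosomes and in their expression. A population grown from 1 cell starts from a single genome and a single state of that mixture. Tumour cells of 4T1 are epithelial, and keratins, claudins and Epcam mark that identity, whereas chaperones, ribosomal proteins and sterol enzymes follow the protein and lipid demands of the cell.

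The libraries held 20143111 to 36831801 counts, of which 1 gene took 36.8 to 49.3% and the 6 most counted genes 61.4 to 72.1%. Parental replicate 1 and E2 replicate 1 had the highest share for that gene. Summed epithelial markers lay at 307 to 341 CPM (counts scaled to the normalised total of each library) in the parental libraries and at 402 to 669 CPM in the clonal ones, with 9 of 10 markers detected and Krt5 at 0 in all libraries. The sum does not hold for each marker: Cdh1, E-cadherin, averaged 68.2 CPM in the parental cells, 60.6 in E1, 51.8 in E2, 36.3 in M and 22.4 CPM in A. In A 3 of the 9 tested markers were called lower and 4 higher, with a median log2 fold change of -0.33, against 0.77 to 0.92 in the other clones. The 8 leukocyte markers summed to at most 1.24 CPM with Cd3e, Itgam, Adgre1 and Tyrobp at 0. The 7 endothelial markers reached 0.426 CPM and the 4 adipocyte markers were at 0. Of the 8 fibroblast markers, Dcn and Lum were at 0 and Pdgfra made up most of the sum, which was 6.85 to 7.56 CPM in the parental libraries and 3.28 to 33.8 CPM in the clonal ones. In RNA from whole cultures, fewer cells that express a gene and less of its RNA per cell cannot be told apart.

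On the first principal component of log2 CPM, clone A stood apart from the other populations, and on the second the parental libraries did. Parental scores on the second component were 67.5, 59.9 and 56.1, while the 12 clonal scores ran from -24.6 to 2.28, so the groups did not overlap there.

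**Figure D1:**
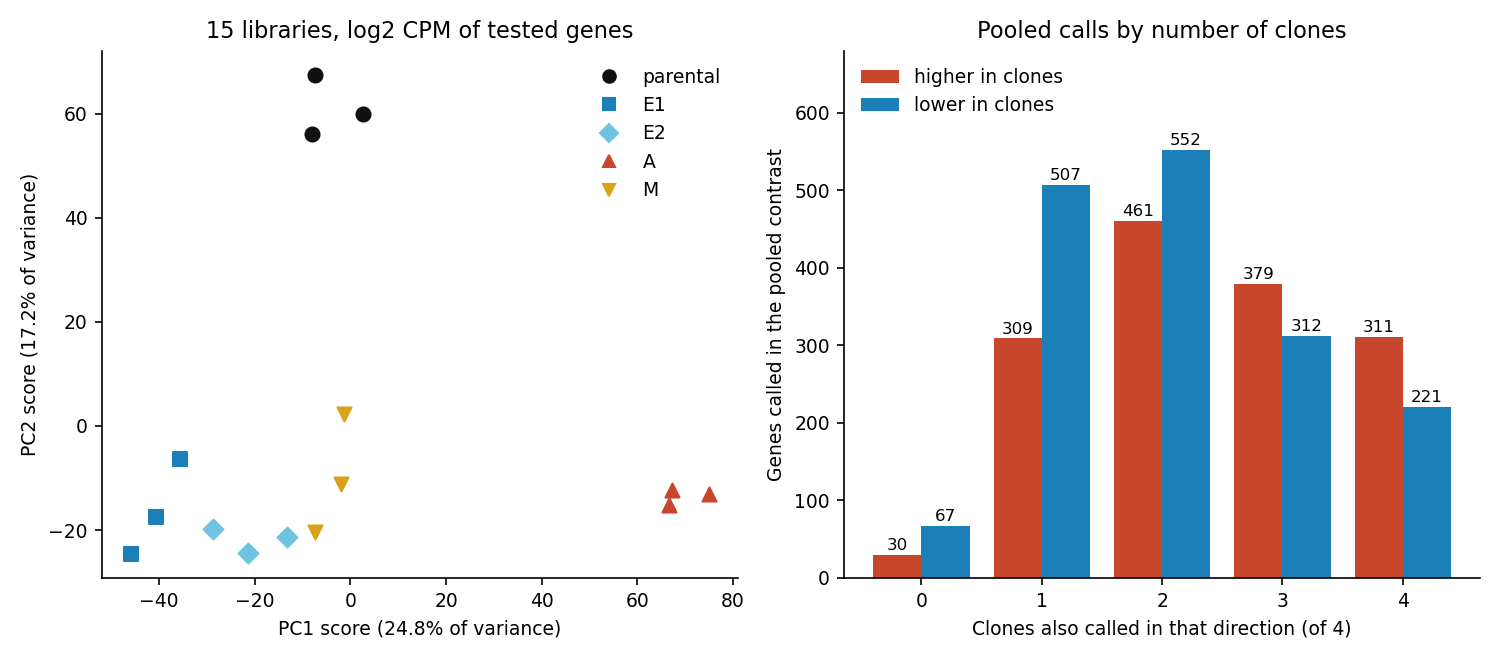
Left, each point is 1 of 15 libraries by its first and second principal component score, coloured by population. Right, bars count the genes called in the pooled contrast by how many single clones were called in the same direction, with 311 higher and 221 lower genes called in all 4.

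Of 12712 genes that passed the filter on low counts, 3149 differed between the mean of the 4 clones and the parental cells at a Benjamini-Hochberg adjusted p under 0.05 in edgeR's quasi-likelihood test, which is 24.8% of the genes. They were 1490 higher genes (11.7%) and 1659 lower genes (13.1%), and 761 of them (5.99%) differed at least 2-fold, 420 upward (3.3%) and 341 downward (2.68%). The median log2 fold change over all tested genes was 0.00. The same test gave 654 genes when E2 was set against the mean of the other 4 populations, 507 for M, 1227 for E1 and 4134 for A. The parental population therefore had more calls than 3 of the clones and fewer than A.

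Of the 3149 genes, 2862 had 4 clone fold changes of 1 sign, and 25 included a clone called in the opposite direction. A call in each of the 4 clones, all in 1 direction, was found for 532 genes, 4.19% of those tested, with 311 higher (2.45%) and 221 lower (1.74%). The 4 clone contrasts share the same 3 parental libraries, so they are not independent of each other. In 483 of the 532 genes all 12 clonal libraries lay outside the parental range. The 532 were chosen by calls from these same libraries, so a high share follows from the choice and is no separate support. Among all tested genes it was 1134 (8.92%), of which 504 lay above (3.96%) and 630 below (4.96%). A change of at least 2-fold in every clone was seen in 154. The genes that rose in all clones had a median parental level of 9.90 CPM, and those that fell had one of 45.9 CPM, against 8.18 CPM over all genes. In the clones the medians of these 2 sets were closer, at 21.05 and 26.98 CPM, against 8.54 CPM over all genes. Because the sets were chosen for rising and falling, this approach largely follows from the choice. The median log2 fold changes of the sets were 1.11 and -0.85.

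The calls depended on what was taken as a replicate. With the 12 clonal libraries as 1 group and no term for the population, 1339 genes were called. With the population as a random block in limma voom, where libraries of a population correlated at 0.342, 160 genes remained, 51 higher and 109 lower, and 140 of these were among the 532. Leaving out parental replicate 1 lowered the higher calls from 1490 to 947 and the shared higher calls from 311 to 206. Leaving out parental replicate 3 lowered the shared calls from 532 to 354.

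The 4 clones also differed from each other at 3646 genes (28.7%). Of the 532 shared genes, 173 differed among the clones in size while keeping their direction. The plot of pooled change against spread between clones shows both kinds.

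**Figure D2:**
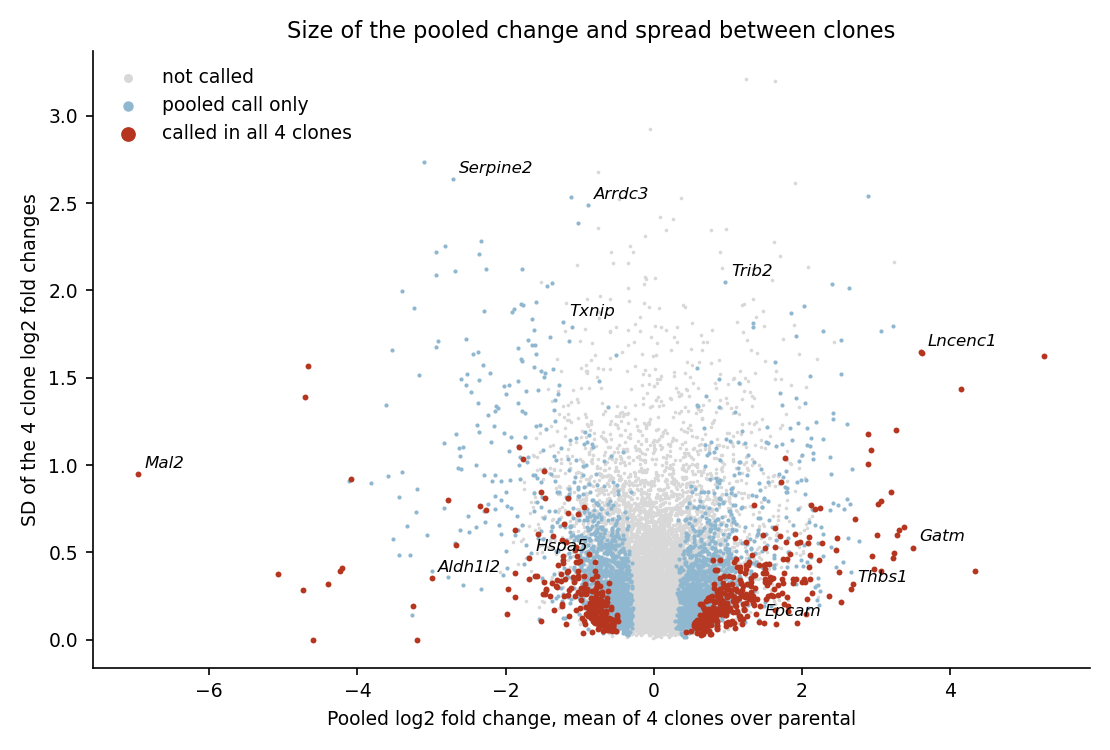
Each point is 1 of 12712 genes, by its pooled log2 fold change (mean of the 4 clones over parental) and the standard deviation (SD) of the 4 clone log2 fold changes. Most genes called in all 4 clones have a small spread, whereas Serpine2, Arrdc3, Trib2 and Txnip combine a pooled call with a large spread.

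The promoters of 4 genes that were lower in all clones are shown here because each holds a motif of the stress response to which its list belongs. Hspa5 and Canx carry the endoplasmic reticulum stress element, which is CCAAT, any 9 bases and CCACG. Aars and Vldlr carry TGATGNAA, the core of the amino acid response element bound by ATF4 with a C/EBP partner. The sequences are RefSeq promoters on GRCm38.p6 from 250 bases before to 50 bases after the start, 5′ to 3′ on the strand of the gene, with matches on either strand in capitals. The windows are chr2:34771840-34772139 (+) for Hspa5, chr11:50325624-50325923 (-) for Canx, chr8:111033592-111033891 (+) for Aars and chr19:27216770-27217069 (+) for Vldlr.
Hspa5: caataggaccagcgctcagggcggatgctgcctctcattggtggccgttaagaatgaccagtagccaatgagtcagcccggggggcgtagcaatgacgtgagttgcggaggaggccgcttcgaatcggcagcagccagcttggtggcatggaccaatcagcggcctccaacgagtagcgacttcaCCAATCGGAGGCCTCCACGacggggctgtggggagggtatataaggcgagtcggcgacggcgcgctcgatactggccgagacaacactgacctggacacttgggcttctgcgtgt
Canx: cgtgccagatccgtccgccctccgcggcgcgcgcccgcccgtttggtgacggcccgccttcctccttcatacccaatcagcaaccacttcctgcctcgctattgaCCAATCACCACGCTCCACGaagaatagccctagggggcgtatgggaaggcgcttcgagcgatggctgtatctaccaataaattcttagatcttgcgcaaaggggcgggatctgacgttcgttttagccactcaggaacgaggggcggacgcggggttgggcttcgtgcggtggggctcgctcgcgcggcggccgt
Aars: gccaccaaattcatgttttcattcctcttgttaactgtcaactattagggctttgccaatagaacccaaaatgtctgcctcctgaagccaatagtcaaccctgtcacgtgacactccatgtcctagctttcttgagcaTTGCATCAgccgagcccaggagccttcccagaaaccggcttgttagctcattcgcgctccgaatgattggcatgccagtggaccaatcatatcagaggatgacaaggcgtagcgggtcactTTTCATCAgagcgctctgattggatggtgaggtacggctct
Vldlr: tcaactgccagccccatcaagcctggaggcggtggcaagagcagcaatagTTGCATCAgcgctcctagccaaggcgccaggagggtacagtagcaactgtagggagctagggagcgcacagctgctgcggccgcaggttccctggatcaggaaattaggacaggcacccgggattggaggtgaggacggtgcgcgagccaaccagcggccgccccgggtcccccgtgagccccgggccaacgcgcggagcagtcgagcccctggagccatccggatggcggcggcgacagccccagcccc

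The stress element was found in 9 of 23 chaperone list promoters (39.1%), against 0.165% of the 9704 tested genes with a promoter in the table, and TGATGNAA in 13 of 33 promoters of the ATF4 list (39.4%), against 2.76%. The carriers did not all fall: of the 9 in the chaperone list 4 were called lower and 5 were not called, and of the 13 in the ATF4 list 7 were called lower, 1 higher and 5 were not called. The 4 printed are those that were lower in all clones. A match describes the letters and shows no binding. The shares of list promoters with a match describe which genes the lists hold, not a change in expression. Of all tested members, carriers or not, 14 of 27 in the chaperone list and 17 of 40 in the ATF4 list were lower. Genes lower in all clones had a CpG observed-to-expected ratio over 0.6 in 92.5% of 159 promoters, genes higher in all clones in 71.1% of 242, and all tested genes in 77.8%. TGANTCA, the motif of AP-1 factors, was in 13.2% of the promoters of shared higher genes, in 7.55% of those of shared lower genes and in 6.27% of all. Motifs were searched on both strands and overlaps between different motifs were not removed.

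Endoplasmic reticulum chaperones and their partners fold secreted proteins and dispose of misfolded ones. Of 27 tested members of that list, 14 were lower in the clones and 0 were higher, and their median change was -0.41 on the log2 scale. Beside the counts of this and each later list stand the shares over all tested genes, 13.1% lower and 11.7% higher. Of the 14, 5 were lower in all clones. Hspa5, the main chaperone of that compartment, stood at 1087, 923 and 943 CPM in the 3 parental libraries. In the 12 clonal libraries its lowest, median and highest values were 205, 293 and 509 CPM. The groups did not overlap, which the naming rule required. Its pooled log2 fold change was -1.68 (standard error, SE, 0.08; adjusted p = 3.64e-12), from -1.12 in E1 to -2.16 in A. Derl1, part of the export route for misfolded proteins, was measured at 48.1, 49.6 and 44.6 CPM against 9.38 to 32.0 CPM in the clones and a median of 17.0 CPM. Derl1 had a log2 fold change of -1.52 (SE 0.06; adjusted p = 2.75e-10).

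Ero1a, the oxidase that forms disulfide bonds, had parental values of 85.2, 94.7 and 95.7 CPM, and clonal values of 28.4, 47.5 and 64.2 CPM as lowest, median and highest. Every clonal library lay under every parental one, with a log2 fold change of -0.95 (SE 0.08; adjusted p = 7.79e-07). Canx, the lectin chaperone calnexin, fell from 460, 547 and 499 CPM to between 297 and 391 CPM, with a clonal median of 339 CPM and a log2 fold change of -0.57 (SE 0.08; adjusted p = 0.000136). The decline was not even over the list in every clone: the median of A was 0.09, against -0.28 in M and -0.58 in both E1 and E2. With the population as a random block 3 of the 14 calls remained. Canx lies on chromosome 11, Ero1a on 14 and Derl1 on 15, where 20.9, 40.2 and 26.3% of tested genes were lower. Hspa5 lies on chromosome 2, where 9.42% were lower. The part that position has in the changes of this list and the next was not tested.

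The list of ATF4 and amino acid response genes, which supply amino acids and charge transfer RNAs under stress, had 17 lower and 2 higher members of 40, with a median of -0.29. With the population as a random block 2 of the 19 calls remained. Without clone A it had 11 lower and 3 higher, with a median of -0.05, and A alone had 32 lower members. Aldh1l2, the mitochondrial formyltetrahydrofolate dehydrogenase, was low in every clone. It was counted at 26.8, 21.6 and 26.3 CPM in the parental libraries and between 1.29 and 6.29 CPM in the clonal ones, with a median of 2.87 CPM. This is a log2 fold change of -3.00 (SE 0.20; adjusted p = 1.32e-08), and no difference among the clones passed the test (adjusted p = 0.292). Vldlr, a receptor for triglyceride-rich lipoproteins, had 37.0, 54.7 and 40.5 CPM in the parental cells and 2.21, 6.03 and 13.3 CPM as lowest, median and highest clonal value. The log2 fold change of Vldlr was -2.77 (SE 0.24; adjusted p = 6.93e-07), smallest in A at -1.85.

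Aars, the alanyl-tRNA synthetase, had parental levels of 307, 195 and 221 CPM. Its clonal levels were 89.9 to 193 CPM with a median of 150.1 CPM, so the highest clonal library lay just under the lowest parental one. The log2 fold change was -0.78 (SE 0.20; adjusted p = 4.14e-05), largest in A at -1.33. Atf3, a transcription factor of the same response, had a pooled log2 fold change of -1.34 (SE 0.15), but its clonal values ran from 1.47 CPM to 21.6 CPM against 18.4 to 22.7 CPM in the parental libraries and overlapped them.

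Ribosomal protein genes build both subunits of the ribosome. In that list 55 of 76 tested members were lower in the pooled clones, 0 were higher, and the median was -0.60. E2 had the lowest clone median at -0.75, followed by E1 at -0.62, M at -0.58 and A at -0.39. In all, 14 members were lower in all clones. Leaving out parental replicate 1 left 38 lower calls and the random block left 4. Rpl4, of the large subunit, stood at 533, 445 and 502 CPM in the parental cells and at 205, 251 and 365 CPM as lowest, median and highest clonal value. Its log2 fold change was -0.95 (SE 0.08; adjusted p = 1.15e-07). Rps24, of the small subunit, had 148, 178 and 151 CPM against a clonal range of 50.6 to 100.2 CPM and a median of 78.3 CPM, a log2 fold change of -1.08 (SE 0.10). For Rps16 the parental values were 27.9, 23.3 and 23.3 CPM and the clonal values 8.46 to 14.9 CPM, with log2 fold changes from -1.20 to -0.86 over the 4 clones.

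Rpl13 was lower in all clones too, at 7.47, 5.59 and 3.81 CPM in the parental libraries and 0.912 to 3.70 CPM in the clonal ones (fold change -1.35 on the log2 scale, SE 0.32). Rpl27 had a pooled log2 fold change of -1.22, but its call was lost on leaving out any 1 of the 3 parental libraries. Ribosomal protein genes have many near-identical copies in the genome, and how the counting placed reads that fit several of them is not given in the sources used here, so their levels are uncertain.

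Ncl encodes nucleolin, a major protein of the nucleolus, and it stood at 1061, 1013 and 1049 CPM in the parental libraries. Its clonal values were 386, 628 and 816 CPM as lowest, median and highest, a log2 fold change of -0.79 (SE 0.04; adjusted p = 2.37e-06), which was not called with the random block. Npm1, the nucleolar chaperone nucleophosmin, had 693, 653 and 722 CPM against 261 to 512 CPM, with a median of 365 CPM and a log2 fold change of -0.90 (SE 0.07; adjusted p = 8.61e-07). Neither gene's groups overlapped, which the naming rule required.

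Taf1d, a subunit of the factor that starts RNA polymerase I on ribosomal DNA, fell evenly, which is what it was named for. It had 114, 108 and 118 CPM in the parental libraries and 35.6, 49.9 and 62.4 CPM as lowest, median and highest clonal value. Its 4 clone log2 fold changes lay between -1.30 and -1.09 around a pooled value of -1.19 (SE 0.07; adjusted p = 3.02e-08). Snhg12, a host gene of small nucleolar RNAs, had 21.7, 16.5 and 17.3 CPM against a clonal range of 4.12 to 11.02 CPM and a log2 fold change of -1.23 (SE 0.16; adjusted p = 2.05e-05).

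Sterol genes had a larger share of higher members than any other pathway list. Of 26 tested genes of cholesterol synthesis and uptake, 12 were higher and 0 lower, with a median of 0.65. The rise was not common to all clones: the median was 1.02 in E1, 1.07 in E2 and 0.71 in M, but -0.12 in A. In A 5 members were lower and 3 higher, while 30% of all tested genes were called there, 1890 lower and 1924 higher. Without parental replicate 2, 7 of the 12 calls were left, and without clone A there were 16. Insig1, which holds the sterol sensor of the SREBP pathway in the endoplasmic reticulum, was higher in every clone. It was measured at 6.41, 13.2 and 7.27 CPM in the parental cells and at 20.5, 54.6 and 73.7 CPM as lowest, median and highest clonal value. Its log2 fold change was 2.53 (SE 0.36; adjusted p = 0.00105), from 2.26 to 2.76 over the clones. Acat2, which starts the pathway in the cytosol, had a log2 fold change of 1.40 (SE 0.49), and its call was lost under 6 of 30 alternatives, among them without parental replicate 1 or 2. With the random block 0 of the 12 sterol calls remained.

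**Figure D3:**
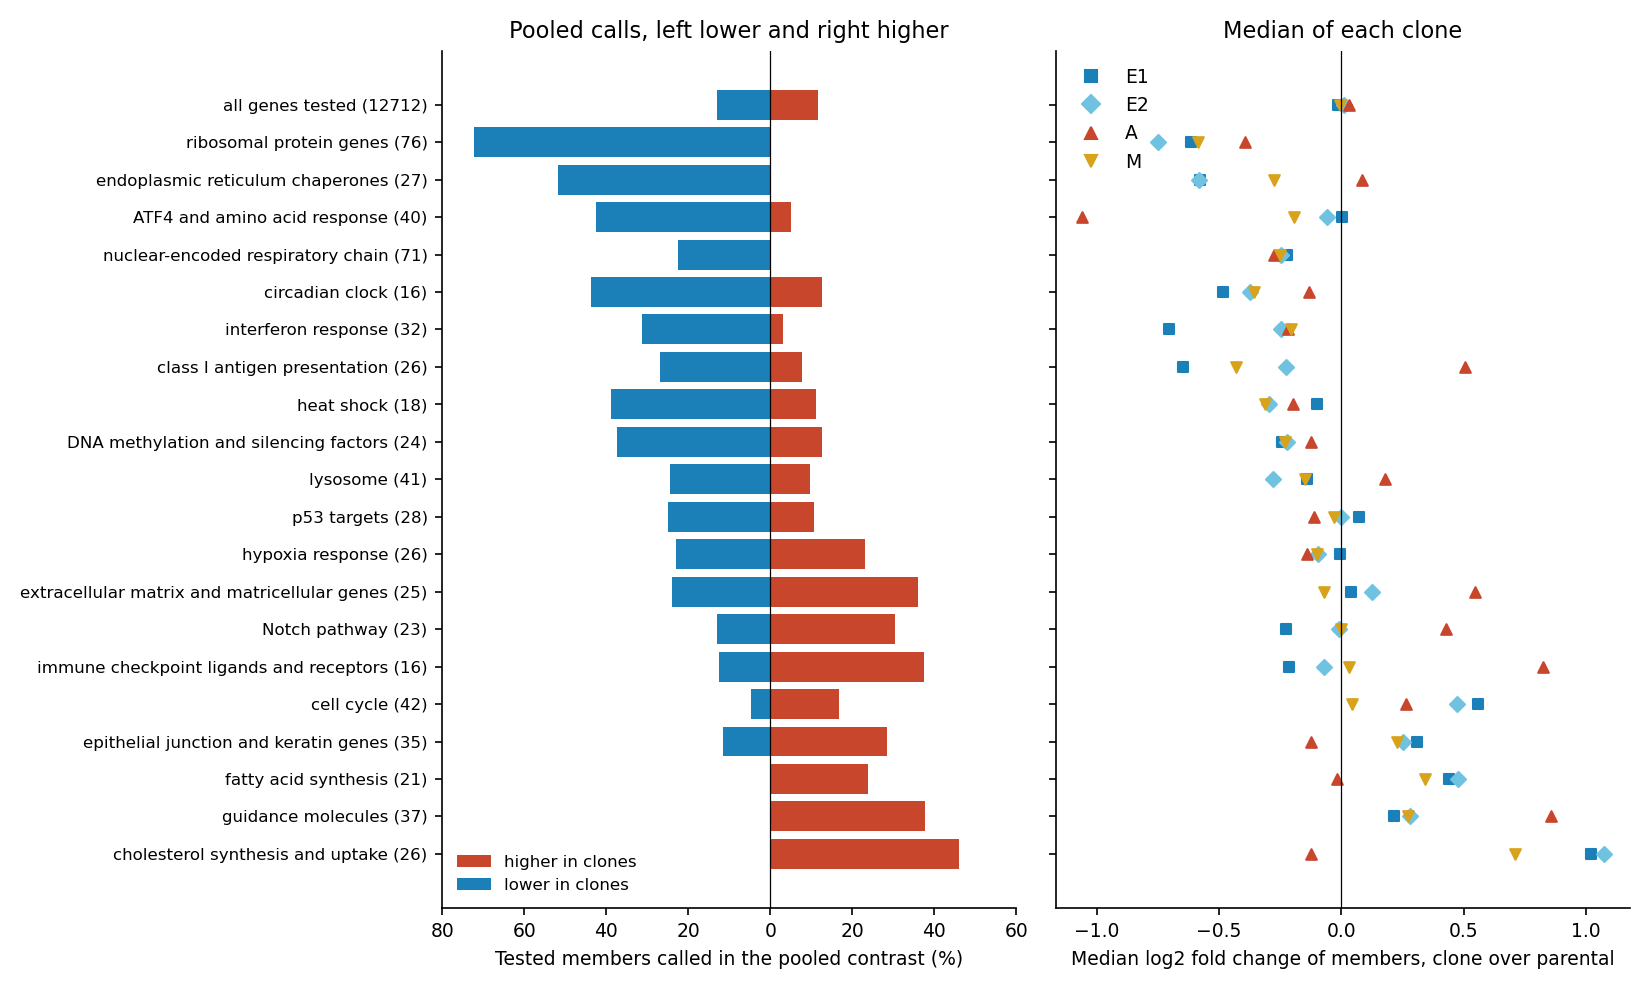
Left, bars give the share of tested members called lower (left) or higher (right) in the pooled contrast, with the number of tested members in brackets. Right, points give the median log2 fold change of the members in each clone, where A lies apart from the other clones for ATF4 genes (-1.06), sterol genes (-0.12) and class I genes (0.51).

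Epithelial junction and keratin genes had 10 higher and 4 lower members of 35 with a median of 0.21, and 5 of the higher ones were higher in all clones. The median of clone A was -0.12, with 11 higher and 7 lower members, against medians of 0.31 in E1, 0.25 in E2 and 0.23 in M. The random block left 3 of the 14 calls. Epcam, the epithelial adhesion molecule, stood at 17.0, 17.4 and 19.3 CPM in the parental libraries and at 40.5, 45.6 and 70.9 CPM as lowest, median and highest clonal value. It was the most even of the named genes of this list, and evenness was 1 of the rules that named it. Its clone log2 fold changes lay between 1.35 and 1.57 around a pooled value of 1.42 (SE 0.09; adjusted p = 1.32e-07). Krt7, a keratin of simple epithelia, had 40.5, 26.6 and 31.6 CPM against 57.9 to 116 CPM and a log2 fold change of 1.34 (SE 0.19; adjusted p = 4.98e-07).

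The largest fall was in the same list. Mal2, a membrane protein that carries cargo to the apical surface of epithelial cells, had 16.4, 23.96 and 24.5 CPM in the parental cells. The 12 clonal libraries lay between 0 and 0.353 CPM with a median of 0.0780 CPM. Its log2 fold change was -6.96 (SE 0.29; adjusted p = 5.00e-15), and each of the 4 clones was at -5.81 or lower. Cldn9, a tight junction claudin, moved the other way, from 0.0929, 0.230 and 0.189 CPM to between 2.83 and 8.02 CPM with a median of 4.97 CPM. Its log2 fold change was 4.34 (SE 0.27; adjusted p = 3.20e-10), the largest rise of the 24 genes named for their fold change.

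Other genes that were low in all clones included several of the cell surface and its signalling. Gpm6b, a membrane proteolipid known from neural cells, stood at 5.52, 9.45 and 9.79 CPM in the parental libraries and at 0, 0.214 and 1.56 CPM as lowest, median and highest clonal value. The log2 fold change of Gpm6b was -4.67 (SE 0.38; adjusted p = 1.81e-08). Kif21b, a kinesin motor, had 7.94, 8.38 and 8.91 CPM against a clonal range of 0 to 0.584 CPM and a median of 0.0797 CPM. Kif21b changed by -5.08 on the log2 scale (SE 0.43; adjusted p = 0.000203). In both genes the highest clonal library was below the lowest parental one, which the naming rule required, and the margin was wide. Several clonal libraries of Mal2, Kif21b and Gpm6b were at 0, and fitted fold changes of such genes depend on the prior count.

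Gab1, the docking adaptor of Met and other receptor tyrosine kinases, had 10.9, 11.02 and 8.91 CPM in the parental cells and 0.604 to 4.67 CPM in the clones, with a median of 1.70 CPM. For Gab1 the log2 fold change was -2.35 (SE 0.24; adjusted p = 3.79e-06). Car12, a carbonic anhydrase of the cell surface, had 20.98, 14.1 and 18.9 CPM against 2.62, 4.32 and 7.57 CPM as lowest, median and highest clonal value, a log2 fold change of -1.97 (SE 0.20; adjusted p = 3.79e-08). Car9, another surface carbonic anhydrase and a known target of hypoxia signalling, was higher instead. It had 1.67, 1.07 and 1.35 CPM in the parental libraries and 2.51, 7.78 and 14.2 CPM as lowest, median and highest clonal value (fold change 2.46 on the log2 scale, SE 0.22; adjusted p = 6.85e-07). The 26 tested hypoxia genes had 6 higher and 6 lower members and a median of -0.05, with 3 higher left without parental replicate 1 and 2 lower with the random block.

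Plekhh2, which holds pleckstrin homology and FERM domains, had 6.69, 7.73 and 5.64 CPM against at most 2.19 CPM in any clonal library (fold change -2.67 on the log2 scale, SE 0.40; adjusted p = 0.000144). Cntnap1, a contactin-associated protein of axons, had 12.2, 4.13 and 6.17 CPM against 0.365 to 3.85 CPM (fold change -1.98 on the log2 scale, SE 0.52; adjusted p = 0.00102). Adcy3, an adenylyl cyclase, had 8.17, 4.55 and 3.68 CPM against 0.454 to 2.37 CPM (fold change -1.87 on the log2 scale, SE 0.40; adjusted p = 0.000169). The parental libraries of Cntnap1 and Adcy3 varied more among themselves than those of Plekhh2, and with the population as a random block Cntnap1 and Adcy3 were no longer called.

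Zhx2, a zinc finger and homeobox repressor, and Ndufb9, a subunit of respiratory complex I, lie on chromosome 15. Zhx2 stood at 50.7, 39.0 and 43.2 CPM in the parental cells and at 6.01, 12.2 and 24.4 CPM as lowest, median and highest clonal value (fold change -1.88 on the log2 scale, SE 0.15; adjusted p = 1.16e-09). Ndufb9 had 34.9, 51.4 and 39.4 CPM against 4.66 to 26.6 CPM (fold change -1.82 on the log2 scale, SE 0.18; adjusted p = 3.20e-10). In Ndufb9 the clones fell into levels: log2 fold changes were -0.80 in E1 and -0.93 in E2, but -2.69 in A and -2.85 in M. Its call was lost when the 12 clonal libraries formed 1 group and with the random block.

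Among the genes that rose in every clone, Thbs1 had the highest level of those named for their fold change. It encodes thrombospondin 1, a secreted matricellular glycoprotein. The parental libraries had 72.9, 80.8 and 95.9 CPM, and the clonal ones 275, 501 and 712 CPM as lowest, median and highest. The log2 fold change was 2.66 (SE 0.15; adjusted p = 3.20e-10), between 2.29 in M and 3.01 in E2. The 25 tested matrix genes had 9 higher and 6 lower members and a median of 0.10, and without parental replicate 1 they had 6 higher and 3 lower, and with the random block 2 higher. Ccn2, a matricellular growth factor, rose from 14.1, 16.4 and 23.1 CPM to between 24.9 and 86.7 CPM (fold change 1.80 on the log2 scale, SE 0.24; adjusted p = 1.32e-05). Has2, which makes hyaluronan, rose from 7.34, 14.8 and 12.6 CPM to between 13.4 and 53.1 CPM, with overlap between the groups (fold change 1.55 on the log2 scale, SE 0.32; adjusted p = 3.53e-05).

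Gatm, which catalyses the first step of creatine synthesis, stood at 0.929, 1.26 and 0.913 CPM in the parental cells. The 12 clonal libraries had 6.58, 13.3 and 18.9 CPM as lowest, median and highest. Gatm had a log2 fold change of 3.50 (SE 0.15; adjusted p = 3.64e-12), from 2.82 in A to 4.07 in E1. Pcyt1b, an enzyme of phosphatidylcholine synthesis, was more even, with 10.5, 16.3 and 14.8 CPM against 29.1 to 84.4 CPM and clone log2 fold changes between 1.81 and 2.04. Acsl4, which activates long polyunsaturated fatty acids, rose from 115, 172 and 133 CPM to between 176 and 495 CPM (fold change 1.12 on the log2 scale, SE 0.19; adjusted p = 0.000114), and its lowest clonal library was close to the highest parental one.

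Havcr2 and Igsf11 belong to the list of immune checkpoint ligands and receptors, in which 6 of 16 members were higher and 2 lower with a median of 0.16, which became -0.09 without clone A. The random block left 1 of the 8 calls. Havcr2, the receptor TIM-3, had 0.232, 1.45 and 0.504 CPM in the parental libraries and 1.93, 7.24 and 17.0 CPM as lowest, median and highest clonal value. Havcr2 had a log2 fold change of 3.23 (SE 0.71; adjusted p = 0.000309). Igsf11, an adhesion molecule that can bind the checkpoint receptor VISTA, had 0.0929, 0.383 and 0.567 CPM against 1.21 to 19.1 CPM (fold change 4.14 on the log2 scale, SE 0.61; adjusted p = 4.03e-08). In Igsf11 clone A was the lowest at a log2 fold change of 2.02, against 4.63 to 5.17 in the others. Ulbp1, a stress ligand of the natural killer receptor NKG2D, had 14.9, 18.0 and 18.9 CPM against 29.3 to 52.97 CPM, a log2 fold change of 1.28 (SE 0.12; adjusted p = 6.45e-07). The leukocyte markers stayed near 0 in every library.

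Lncenc1, a long noncoding RNA known from embryonic stem cells, had a wider gap between clones than any other gene described here that was higher in all of them. It had 1.95, 3.41 and 2.46 CPM in the parental cells and 5.97, 49.8 and 91.8 CPM as lowest, median and highest clonal value. For Lncenc1 the log2 fold change was 1.29 in A and 5.00 in E1, with a pooled value of 3.61 (SE 0.24; adjusted p = 4.30e-12). Prss22, a serine protease of the tryptase family, had 0.836, 3.25 and 2.08 CPM against 11.1 to 45.7 CPM (fold change 3.38 on the log2 scale, SE 0.56; adjusted p = 2.37e-06). Atp13a4, a P-type ATPase of cell membranes, had 1.21, 0.383 and 0.850 CPM against 2.498 to 19.6 CPM (fold change 3.03 on the log2 scale, SE 0.47; adjusted p = 2.52e-06).

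Sdcbp2, the adaptor syntenin 2, rose from 2.65, 1.22 and 1.04 CPM to between 5.73 and 12.3 CPM (fold change 2.36 on the log2 scale, SE 0.41; adjusted p = 6.75e-07). B4galnt3, a glycosyltransferase, rose from 2.74, 2.41 and 3.46 CPM to between 3.75 and 26.9 CPM (fold change 2.10 on the log2 scale, SE 0.24; adjusted p = 0.000816). Of the 12 genes with the largest rises, Cldn9, Gatm, Thbs1 and Sdcbp2 were still called with the population as a random block, and the other 8 were not. Of the 12 with the largest falls, Cntnap1, Adcy3 and Ndufb9 were not.

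**Figure D4:**
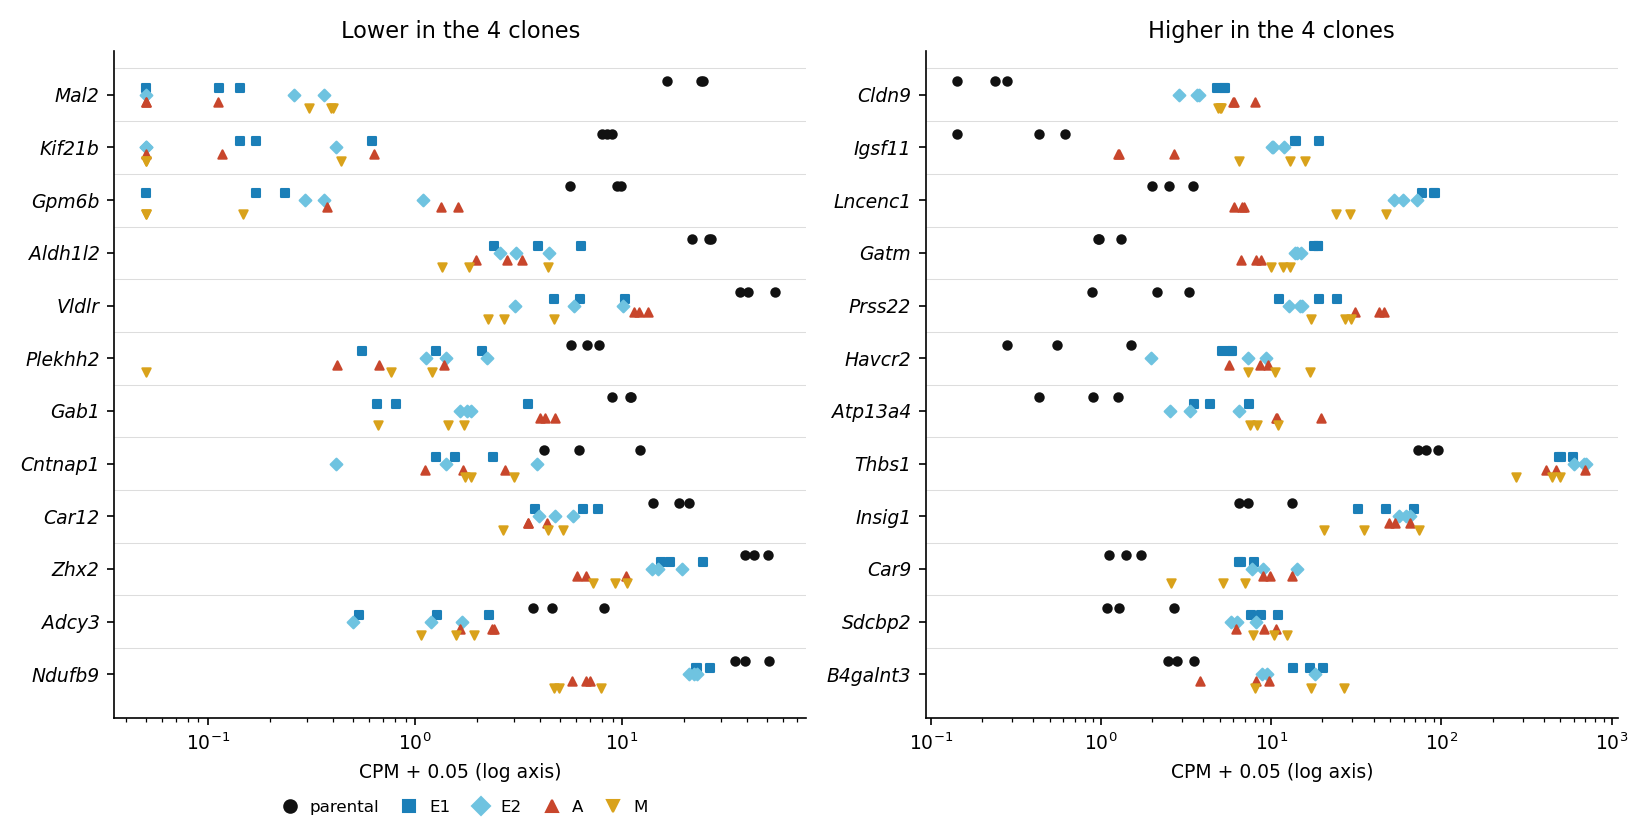
Each row is 1 of the 24 genes with the largest pooled changes among those that met the naming rule, and each point is 1 library, on a log axis of CPM plus 0.05. The 12 clonal libraries lie to 1 side of the 3 parental ones in every row, which the naming rule required.

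Other genes were named because they moved by nearly the same amount in the 4 clones, so their narrow ranges reflect that choice. Sf3b3, a subunit of the splicing factor SF3B, stood at 242, 138 and 180 CPM in the parental cells and at 60.5, 83.7 and 96.4 CPM as lowest, median and highest clonal value (fold change -1.23 on the log2 scale, SE 0.24; adjusted p = 4.24e-08). Colgalt1, which adds galactose to collagen, had 49.8, 39.0 and 43.9 CPM against 14.6 to 23.996 CPM, with clone log2 fold changes between -1.29 and -1.03. Both genes lie on chromosome 8. Stxbp6, a syntaxin-binding protein, rose from 3.57, 5.05 and 5.61 CPM to between 10.3 and 17.8 CPM with clone log2 fold changes of 1.40 to 1.61. Pon3, a lactonase, rose from 9.29, 8.30 and 11.8 CPM to between 16.4 and 25.2 CPM with clone log2 fold changes of 0.94 to 1.15. Iqce and Cfap69, both linked to cilia, had pooled log2 fold changes of 1.09 and 1.19 and lay between 1.01 and 1.27 in every clone.

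Abundant genes also differed by moderate folds. Actb, cytoplasmic beta-actin, stood at 798, 780.3 and 747 CPM in the parental libraries and between 955 and 1427 CPM in the clonal ones, with a median of 1120.1 CPM and a log2 fold change of 0.58 (SE 0.06; adjusted p = 0.00129). Msn, which links actin to the membrane, had 377, 294 and 339 CPM against 408 to 596 CPM (fold change 0.63 on the log2 scale, SE 0.11; adjusted p = 0.00026). Dcbld2, a receptor-like membrane protein, rose from 95.2, 76.9 and 101 CPM to between 119 and 272 CPM (fold change 1.17 on the log2 scale, SE 0.14; adjusted p = 1.33e-06). Hnrnpa2b1, an RNA-binding protein, had 249, 342 and 328 CPM against 378 to 667 CPM (fold change 0.65 on the log2 scale, SE 0.16; adjusted p = 0.00101). With the random block Actb, Msn and Hnrnpa2b1 were no longer called.

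The called genes were unevenly placed in the genome. On chromosome 14, 166 of 413 tested genes (40.2%) were lower and 5 (1.21%) higher, with a median log2 fold change of -0.49. On chromosome 8, 206 of 674 (30.6%) were lower and 28 (4.15%) higher, with a median of -0.32. Chromosomes 15 and 11 had 26.3% and 20.9% lower genes and medians of -0.20 and -0.16. Higher genes were most frequent on chromosomes 5 (173 of 790), X (82 of 375) and 10 (120 of 601), with medians of 0.17, 0.20 and 0.20. Over all tested genes the shares were 11.7% higher and 13.1% lower, as given above.

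Of the 221 genes lower in all clones, 136 (61.5%) lay on chromosomes 8, 11, 14 and 15, which held 20.3% of the tested genes. Of the 311 genes higher in all clones, 149 (47.9%) lay on chromosomes 4, 5, 7, 10 and X, which held 27.2%. These chromosomes were picked by their calls, so the shares describe the lists and carry no test. Among the 160 genes left with the population as a random block, chromosome 14 had 18 lower and 0 higher, chromosome 8 had 16 lower and 0 higher, and chromosome 11 had 16 lower and 2 higher.

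Each library was also summarised by the median deviation of a chromosome's genes from their own mean over the 15 libraries. For chromosome 14 this was 0.25 to 0.33 (log2) in the 3 parental libraries and at most 0.06 in the 12 clonal ones, with no overlap. For chromosome 8 the parental libraries lay at 0.20 to 0.24 and the clonal ones between -0.10 and 0.01. For chromosome 10 the parental libraries lay at -0.14 to -0.13 and the clonal ones between -0.04 and 0.10. Such a separation held for 8 of 20 nuclear chromosomes, namely 4, 5, 8, 10, 11, 14, 18 and X.

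Only bins of 10 Mb that held at least 20 tested genes were examined along a chromosome. On 14 these were the 6 between 20 and 80 Mb, and on X they were 8 that did not all adjoin. Of 213 such bins over all chromosomes, 68 had 4 clone medians above 0 and 44 had 4 below 0. All 12 bins of chromosome 8 had 4 clone medians below 0, with pooled medians from -0.42 to -0.22. All 6 such bins on chromosome 14 did so too, with pooled medians from -0.63 to -0.37. On chromosome 10, 11 of 12 bins had 4 clone medians above 0, and on X 7 of 8. On chromosome 15, 5 of 7 bins had 4 clone medians below 0. Size differed between clones: the median over chromosome 14 was -0.75 in E2 against -0.46 in E1, -0.34 in M and -0.30 in A. On chromosome 15 the bin from 50 to 60 Mb holds Mal2, Zhx2, Ndufb9 and Derl1, and also Has2, which was higher. The median of that bin was -1.13 in M and -0.91 in A, but -0.33 in E1 and -0.32 in E2. DNA copy number was not analysed here, so the part that gene dosage has in these values was not tested.

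**Figure D5:**
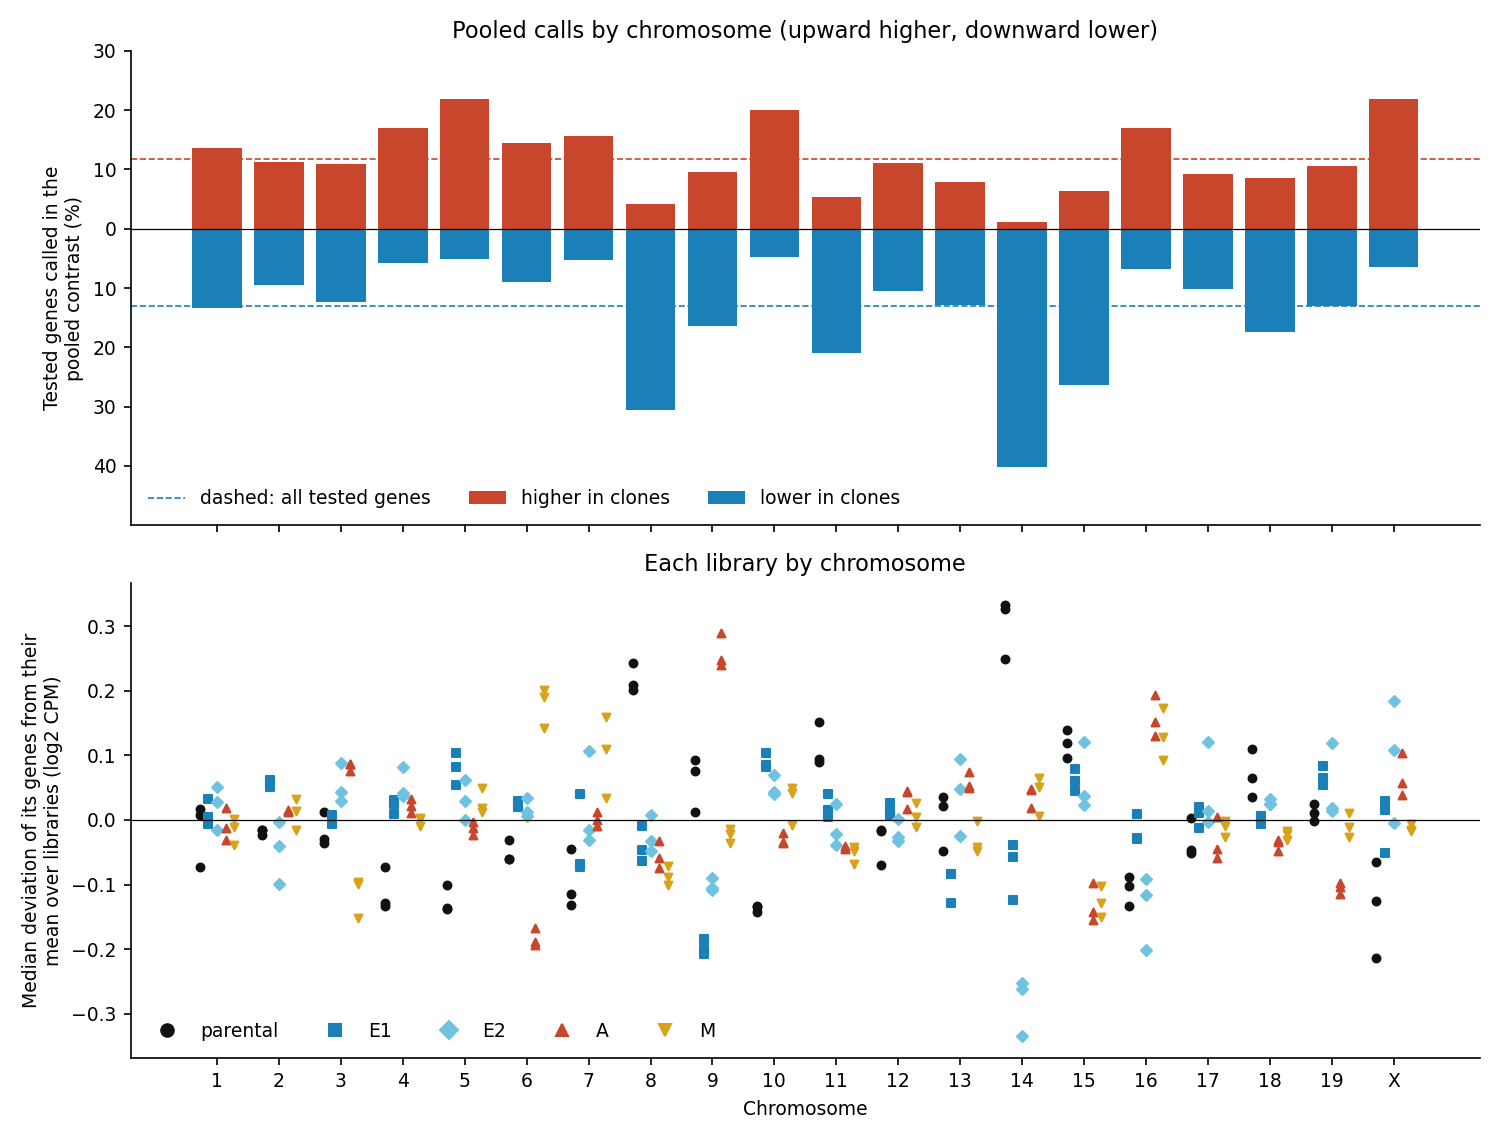
Top, bars give the percent of tested genes on each nuclear chromosome called higher (upward) or lower (downward) in the pooled contrast, with dashed lines at 11.7% and 13.1% for all tested genes. Bottom, each point is 1 library, at the median deviation of the chromosome's genes from their mean over the 15 libraries in log2 CPM, and the 3 parental libraries stand apart from all clonal ones on chromosomes 4, 5, 8, 10, 11, 14, 18 and X.

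Guidance molecules, the ligands and receptors that steer cell and axon migration, had 14 higher and 0 lower members of 37 with a median of 0.39, and 3 were higher in all clones. Clone A had 19 higher members and a median of 0.86, the other clones had medians of 0.22 to 0.28, and without A the pooled median was 0.25. The random block left 1 of the 14 calls. Epha4, a receptor for ephrins, rose from 3.76, 3.52 and 7.18 CPM to between 8.08 and 45.8 CPM (fold change 1.91 on the log2 scale, SE 0.35; adjusted p = 0.000378). Nrp1, a co-receptor for semaphorins and VEGF, rose from 7.47, 4.55 and 10.5 CPM to between 8.33 and 56.1 CPM with overlap (fold change 1.80 on the log2 scale, SE 0.37; adjusted p = 9.24e-05). Sema7a, a membrane-anchored semaphorin, had 2.46, 1.22 and 2.39 CPM against 2.14 to 44.5 CPM, and the high values were those of A, whose mean was 41.2 CPM. Without parental replicate 2, 9 of the 14 calls of this list were left.

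In the Notch pathway 7 members were higher and 3 lower of 23, and the median of 0.12 became -0.01 without clone A. Without parental replicate 2, 2 of the 7 higher calls were left, and the random block left 1 of all 10. Dll1, a ligand, rose from 1.76, 3.52 and 3.87 CPM to between 7.57 and 19.8 CPM (fold change 2.05 on the log2 scale, SE 0.36; adjusted p = 3.33e-07). Hes1, a target of the pathway, rose from 2.74, 3.06 and 4.47 CPM to between 6.93 and 16.9 CPM (fold change 1.505 on the log2 scale, SE 0.22; adjusted p = 4.99e-06). Both were separated from the parental range in all 12 libraries. Jag2, another ligand, had a log2 fold change of 0.81, and its call was lost under 5 of 30 alternatives, among them without parental replicate 2 or 3.

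Nuclear-encoded respiratory chain genes had 16 lower and 0 higher members of 71 with a median of -0.26, and the 4 clone medians lay between -0.28 and -0.22. With the random block 0 of the 16 calls remained. Besides Ndufb9, the named members were Uqcrq of complex III and Ndufb11 of complex I. Uqcrq had a log2 fold change of -1.01 (SE 0.42) and Ndufb11 one of -0.79 (SE 0.19), and leaving out parental replicate 1 or 3, respectively, ended their calls. The 13 mitochondrially encoded genes had 2 lower and 0 higher members (15.4%, against 13.1% of all genes) and a median of -0.15. Clone A had 3 higher members there and a median of 0.38, and the random block left 0 calls.

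Interferon response genes, which restrict viruses, had 10 lower and 1 higher member of 32 with a median of -0.28. Without parental replicate 1 there were 5 lower calls, and with the random block 0. No member was lower in all clones (0 of 32), where the share over all tested genes was 1.74%. M had 1 lower and 2 higher members, against 8, 7 and 5 lower in E1, E2 and A. Class I antigen presentation genes, which load peptides for display to T cells, had 7 lower and 2 higher members of 26 with a median of -0.21. E1, E2 and M had medians of -0.65, -0.23 and -0.43 there, and A had one of 0.51. With the random block 0 of the 9 calls remained. Tapbp, the peptide-loading chaperone tapasin, was higher in all clones, with 44.9, 51.7 and 50.01 CPM against 60.8 to 118 CPM (fold change 0.78 on the log2 scale, SE 0.09; adjusted p = 0.000141). Tap2, a peptide transporter subunit, and Psmb10, an immunoproteasome subunit, had log2 fold changes of -0.93 (SE 0.34) and -0.83 (SE 0.21). The call of Tap2 was lost without parental replicate 1 and that of Psmb10 without parental replicate 3.

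Cell cycle genes had 7 higher and 2 lower members of 42 with a median of 0.37. The higher share was 16.7%, against 11.7% of all genes, and the random block left 0 calls. Clone medians ran from 0.04 in M to 0.56 in E1. Rrm2, a ribonucleotide reductase subunit, rose from 17.9, 13.2 and 16.8 CPM to between 18.8 and 42.7 CPM (fold change 0.99 on the log2 scale, SE 0.15; adjusted p = 2.84e-05). Bub1, a spindle checkpoint kinase, rose from 17.7, 26.98 and 34.3 CPM to between 24.2 and 76.1 CPM with overlap (fold change 1.03 on the log2 scale, SE 0.30; adjusted p = 0.00376). Myc, the growth regulator, lay on chromosome 15 and had a log2 fold change of -1.07 (SE 0.16), with clonal values from 34.2 to 175 CPM against 157 to 227 CPM, so the groups overlapped.

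Circadian clock genes had 7 lower and 2 higher members of 16 with a median of -0.45. The random block left 0 of the 9 calls, and 0 members were lower in all clones, against 1.74% of all tested genes. Arntl, the activator BMAL1, stood at 15.5, 15.1 and 18.7 CPM in the parental libraries and between 4.53 and 13.2 CPM in the clonal ones (fold change -0.91 on the log2 scale, SE 0.14; adjusted p = 0.000471). Bhlhe40, a repressor of the clock, had a log2 fold change of 1.52 (SE 0.36), with A near the parental level at a mean of 11.7 CPM and the other clones at 42.9 to 62.5 CPM. Per3, a period gene, had a log2 fold change of 1.18 (SE 0.33), highest in A at a mean of 12.9 CPM. The calls of Bhlhe40 and Per3 were lost when the 12 clonal libraries formed 1 group. Leaving out parental replicate 3 left 3 of the 7 lower calls of this list.

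Heat shock genes had 7 lower and 2 higher members of 18 with a median of -0.28, and 1 call remained with the random block. DNA methylation and silencing factors had 9 lower and 3 higher members of 24 with a median of -0.28, and 4 lower without parental replicate 2. Neither list had a member that was lower in all clones (0 in both), against 1.74% of all tested genes. The random block left 0 of the 12 calls of the silencing factors. Lysosomal genes had 10 lower (24.4%) and 4 higher (9.76%) members of 41. Fatty acid synthesis genes had 5 higher (23.8%) and 0 lower members of 21, with 3 higher left without parental replicate 1. Over all tested genes 13.1% were lower and 11.7% higher. The random block left 2 lysosomal and 0 fatty acid calls. For p53 targets the counts were 7 lower and 3 higher of 28, and the median of -0.14 became 0.04 without clone A, while 1 call remained with the random block.

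Zfp57, which keeps imprinted regions methylated in the embryo, was the single gene at 0 counts in all 12 clonal libraries with at least 10 counts in each parental one. It was picked out after its values were seen. The parental libraries held 42, 40 and 42 counts of it, or 1.60 CPM on average (SD 0.320). Against a floor of 3 counts over the 12 clonal libraries, 0.00846 CPM, it was at least 189-fold lower in the clones. No gene was at 0 in the 3 parental libraries with at least 10 counts in each clonal one (0 genes).

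In some genes a pooled call joined clones that moved in opposite directions. Trib2, a pseudokinase, had 4.32, 8.57 and 4.13 CPM in the parental cells, and clone means of 2.42 in E1, 7.01 in E2, 73.6 in A and 11.96 CPM in M. Arrdc3, an arrestin-domain protein, had parental values of 5.62, 10.6 and 5.48 CPM and clone means of 0.539, 2.84, 40.8 and 3.10 CPM in the same order. Txnip, the thioredoxin-interacting protein, had 19.04, 9.415 and 11.7 CPM and clone means of 3.14, 1.86, 35.1 and 4.86 CPM. Serpine2, a protease inhibitor, had 8.68, 9.84 and 4.66 CPM and clone means of 0.174, 0.358, 15.2 and 1.12 CPM. In all 4 genes A was the highest clone and E1 or E2 the lowest. Their pooled log2 fold changes of 0.96, -0.89, -1.22 and -2.72 are means over clones that moved in opposite directions. Leaving out clone A ended the call of Trib2, and leaving out E1 ended those of Arrdc3 and Txnip. Txnip lost its call under 8 of 30 alternatives, and Arrdc3 also without parental replicate 2.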

How the data were processed

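RNA sequencing counts of 15 libraries from 5 populations of 4T1 cells were used. The authors deposited raw counts per Entrez gene and library, made with HISAT2 and featureCounts on GRCm38 and mm10, per the submitters' processing notes, which also name DESeq2. Versions and the strand setting of the counting are not given in the sources used here, so overlapping genes on opposite strands cannot be told apart. The deposited series tables were not used here.

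Of 27179 identifiers, 25275 were named from a RefSeq table, 18 from GENCODE, and 1886 were unnamed. edgeR 4.0.16 in R 4.3.3 kept 12712 genes (filterByExpr, minimum count 10, minimum total 15), normalised by TMM (factors 0.847 to 1.11) and fitted 1 coefficient per population with robust quasi-likelihood dispersions (biological coefficient of variation 0.255, prior count 2). Contrasts were the mean of the 4 clones minus parental, each clone minus parental, and any difference among clones. Adjusted p-values are Benjamini-Hochberg values over all tested genes. CPM uses the TMM-adjusted library total. The SE of a pooled change rests on how log2 CPM varied between libraries of 1 population. Named genes, apart from predicted models, had at least 5 CPM in the higher group. Among genes shared by the 4 clones with all 12 libraries outside the parental range, these were the 12 largest changes in each direction, the 6 of at least 2-fold that were most even over the clones, and the 5 with the largest CPM differences. Up to 3 called genes per list and 4 genes with opposed clones were added whatever the clones did. Not every gene so named is printed. Canx, Aars and Zfp57 were named after their values were seen. The code was tested on simulated data. Members, lists and rules were chosen with earlier results of these data known. The labels call replicates biological. Alternatives used limma 3.58.1 and DESeq2 1.42.0. Floors cover counting error only. Some results that the naming rule covers are not reported here.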

Additional observations from a re-analysis of the deposited data

Results flagged for a closer look

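Of 79 genes described above, 42 differed among the 4 clones in edgeR's quasi-likelihood test at an adjusted p of 0.0423 or lower, and each is given by the gap between its highest and its lowest clone log2 fold change. In 37 of the 42 the 4 clones still lay on 1 side of the parental cells. For many of these genes the naming rule required calls in 1 direction in all 4 clones, so this agreement was partly set by the choice. A was the highest or the lowest clone in 33 and E2 in 11, and the shares over all tested genes were not counted.

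The largest gaps were those of Arrdc3 (5.998), Serpine2 (5.93), Trib2 (4.90), Txnip (4.14), Sema7a (3.86) and Lncenc1 (3.71). Gaps between 3 and 3.5 were found for Gpm6b (3.38) and Igsf11 (3.15). Atf3 had a gap of 2.97, Bhlhe40 of 2.41, Mal2 of 2.10, Ndufb9 of 2.05 and Myc of 2.02.

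Among stress and lipid genes, the gap was 1.95 for Vldlr, 1.59 for Derl1, 1.04 for Hspa5, 0.95 for Acsl4, 0.78 for Aars and 0.65 for Ero1a. Among genes of the surface, the matrix and signalling it was 1.77 for Gab1, 1.72 for Atp13a4, 1.70 for Nrp1, 1.49 for Prss22, 1.37 for Epha4, 1.10 for Car9, 1.01 for Ccn2, 0.96 for Has2, 0.87 for Hes1, 0.72 for Thbs1 and 0.58 for Dcbld2.

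For the others it was 1.59 for Per3, 1.30 for Zhx2, 1.26 for Tap2, 1.24 for Gatm, 1.15 for Psmb10, 0.95 for Arntl, 0.92 for Ncl, 0.74 for Rps24, 0.70 for Rrm2, 0.62 for Npm1, 0.61 for Rpl4 and 0.57 for Tapbp.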

How the results depend on the processing

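Over 145 named genes and 30 alternatives, 246 calls were lost and 1 direction changed: Arrdc3 turned to a log2 fold change of 0.71 (adjusted p = 0.801) with the clonal libraries as 1 group. Counts of calls moved most with the unit of replication. There were 1339 pooled calls (711 higher, 628 lower) with 2 groups of libraries, 160 (51 higher, 109 lower) with the population as a random block, and 1785 (874 higher, 911 lower) when tested against a 1.2-fold change. Leaving out 1 library gave 2139 to 3328 pooled calls, 947 to 1563 higher and 1111 to 1771 lower, and 354 to 548 shared calls, 206 to 337 higher and 132 to 220 lower. Of the 532 shared genes, 525 to 532 were still pooled calls. Without clone M 813 genes were shared by the other 3 clones, 347 of them lower. Without parental replicate 1 and E2 replicate 1 there were 2374 pooled calls. RLE size factors gave 3144 pooled calls, no filter 3437, a stricter filter 3100, leaving out the 6 most counted genes 3143 and DESeq2 3431. RLE scaling moved the median of all genes by -0.01 (log2). With the replicate number as a block there were 3456 pooled and 674 shared calls, and the labels do not say that a number marks a shared batch. Same-numbered libraries correlated at a mean r of 0.0561 (4 of 30 pairs over 0.1, 27 above 0), different-numbered ones at -0.028 (0 of 60 over 0.1). Of 15 libraries, 14 correlated best with one of their own number, a hint of pairing from the data and not from the design, and since not every pair passed 0.1 the numbers were not treated as pairs. With 3 parental libraries, each of them carries much of the pooled contrast.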
